A study of Mus musculus with 5 samples.

Results

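The enzymes that hydroxylate and crosslink collagen were followed in the livers of 16-week-old C57BL/6 mice from a study of givinostat and liver fibrosis. Members were taken by gene symbol. They are the lysyl oxidases Lox, Loxl1, Loxl2, Loxl3 and Loxl4, the prolyl 4-hydroxylase alpha subunits P4ha1 and P4ha2, and the lysyl hydroxylases Plod1, Plod2 and Plod3, which make 10 of the 24808 gene rows used. Both groups had received carbon tetrachloride (CCl4), a hepatotoxin that scars the rodent liver. There were 3 libraries from mice given CCl4 alone and 2 from mice given CCl4+givinostat, where givinostat is an inhibitor of histone deacetylases. The comparison is therefore between injured livers with and without the drug, and uninjured liver was not analysed here. The labels state no dose, schedule or sex.

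Collagen chains are modified inside the endoplasmic reticulum before they are secreted. Prolyl 4-hydroxylases make the hydroxyproline that keeps the triple helix stable at body temperature, and lysyl hydroxylases make the hydroxylysine that carries sugars and forms the tougher crosslinks. Both need iron, 2-oxoglutarate, oxygen and ascorbate. Lysyl oxidases are copper enzymes that act outside the cell on lysines of collagen and elastin, and their crosslinks make scar tissue stiff and harder to degrade. In injured liver, stellate cells that have become myofibroblasts are a main source of the collagen these enzymes act on.

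Library totals ran from 18634801 to 21773867 counts, and albumin, the hepatocyte's main secreted protein, took 7.01 to 8.14% of them. CCl4 replicate 1 stood apart from CCl4 replicates 2 and 3 on the first principal component of log2 CPM (counts per 1000000 of the scaled library), which held 38.0% of the variance. The second component held 30.6% and had the CCl4 libraries at -28.4, -13.6 and -7.37 and the givinostat libraries at 33.2 and 16.2. All genes of the 7 marker lists for liver cell types had reads in at least 1 library. Markers of the mesothelium, the liver's outer lining, summed to 8.61 to 21.7 CPM with CCl4 and to 3.10 and 2.33 CPM with givinostat. All 8 of these were lower in fitted value, and the defining marker Msln had 0 and 1 counts with givinostat. Cholangiocyte markers, of the bile duct lining, were at 140.2 to 211 CPM against 134 and 101 CPM. Spp1 made up most of that sum, and the other markers summed to 32.2 to 32.7 CPM against 28.0 and 31.5 CPM. Of the 7 listed, 5 passed the low-count filter described below, and 4 of these were lower in fitted value. Their median log2 fold change (givinostat over CCl4) was -0.67. Both givinostat libraries lay below every CCl4 library for 2 of the 7, Spp1 and Krt7, where 11.7% of all tested genes did so. Krt7 counts were 57, 46 and 59 against 34 and 26, while Epcam and Sox9 counts overlapped between the groups. Sinusoidal endothelial markers were at 203 to 322 CPM against 148 and 316 CPM, and stellate cell and myofibroblast markers at 317 to 349 CPM against 371 and 336 CPM. Dcn had the most counts of the 12 stellate markers, and its weight in the sum hides a split. In fitted value 6 of the 12 were lower. Both givinostat libraries lay below every CCl4 library for 3 and above for 3, where 11.7% of all tested genes did so in each direction. Kupffer cell and macrophage markers summed to 268, 538 and 406 CPM in CCl4 replicates 1 to 3, against 296 and 359 CPM. All 7 were lower in fitted value, where 53.8% of all tested genes were, but their sums overlapped. Neutrophil and lymphocyte markers were at 15.9, 54.3 and 64.8 CPM against 56.1 and 54.4 CPM, lowest in CCl4 replicate 1. Hepatocyte marker sums overlapped between the groups. In whole tissue, fewer cells of a type and less RNA per cell cannot be told apart.

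Of the 10 enzymes, 0 passed the quasi-likelihood test of edgeR at a p of 0.05 after Benjamini-Hochberg adjustment. This adjustment was over the 13590 genes that passed a low-count filter, and all 10 members passed that filter. In that test 0.00736% of genes were called higher with givinostat and 0% lower, and DESeq2 called 0.482% higher and 0.504% lower with 0 members among them. The fitted value was lower with givinostat for 7 of 10 members, against 53.8% of all tested genes. Their median log2 fold change (givinostat over CCl4) was -0.45, against -0.02 over all tested genes. The member median was -0.19 without CCl4 replicate 3. The enzymes split within each family: Loxl4, Loxl1 and Plod2 lay lowest, while Loxl2, P4ha2 and Plod1 had higher fitted values. At an unadjusted edgeR p under 0.05, 3 of 10 members were lower, where 3.93% of all genes were, and 0 were higher, where 3.52% were. That count of 3 was 5 without CCl4 replicate 1, and 1 without CCl4 replicate 3 or without either givinostat library.

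**Figure D1:**
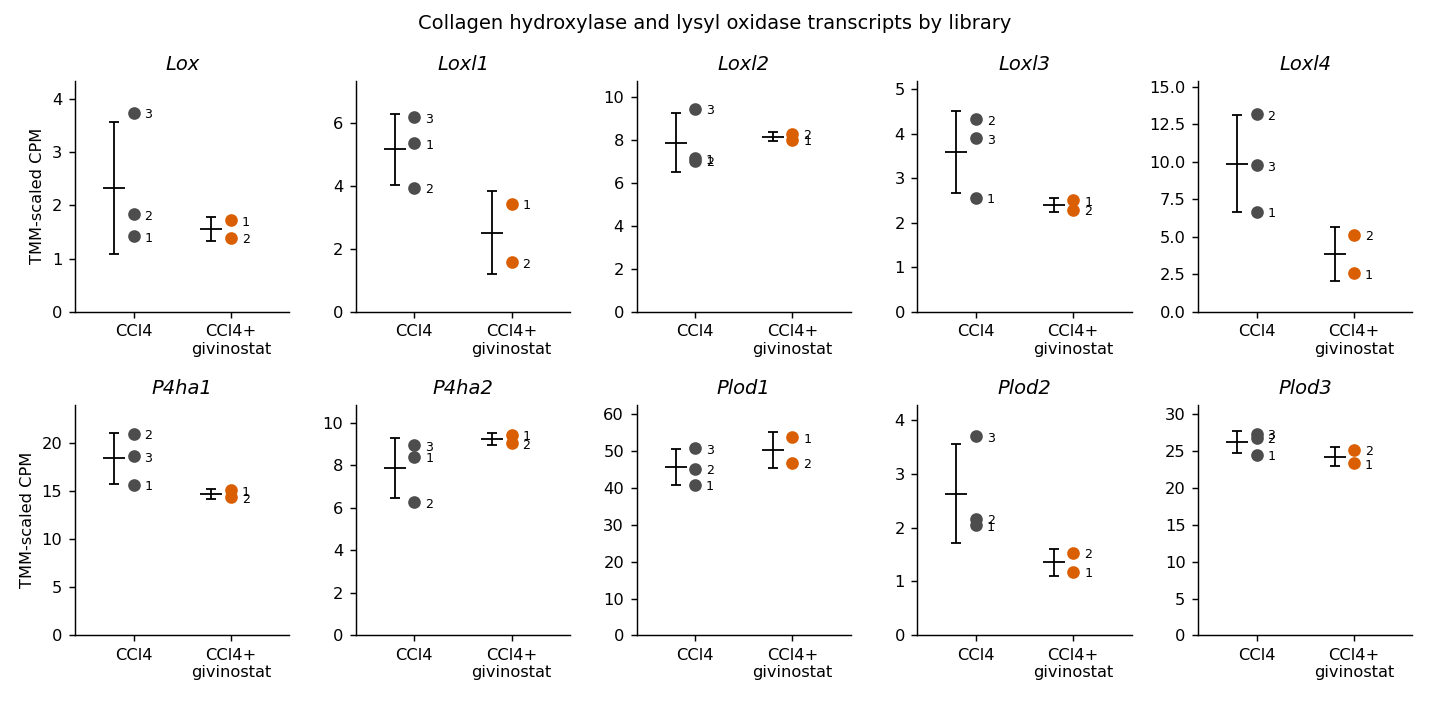
TMM-scaled CPM (y axis, from 0) of each enzyme in the 3 CCl4 libraries (grey) and the 2 CCl4+givinostat libraries (orange), with replicate numbers beside the points and the group mean and SD as black bars. Loxl1, Loxl3, Loxl4, P4ha1 and Plod2 have both givinostat points below all CCl4 points, and P4ha2 has both above, at 9.43 and 9.02 CPM against at most 8.94 CPM.

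The groups did not overlap for 5 members with givinostat lower and for 1 with givinostat higher, where 11.7% of all tested genes did so in each direction. Levels per kilobase of the longest annotated transcript put Plod1 first with CCl4 at 14.0 ± 1.52 CPM per kilobase (SD, n = 3), and Plod3 second at 7.99 ± 0.458 CPM per kilobase. P4ha1 (4.56), P4ha2 (3.47), Loxl4 (2.64), Loxl1 (1.57 ± 0.343) and Loxl2 (1.48 CPM per kilobase) followed, and each neighbouring pair among these 5 overlapped over the CCl4 libraries. Loxl3 (0.877), Plod2 (0.718) and Lox (0.492 CPM per kilobase) came last, and neighbouring pairs among these 3 overlapped, whereas Loxl2 and Loxl3 did not. With givinostat the order changed at 2 places: P4ha2 stood above P4ha1, and Loxl2 stood above Loxl4 and Loxl1.

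The lysyl oxidase family was led by Loxl4 in the CCl4 livers. Loxl4 (ENSMUSG00000025185; chromosome 19, 42593982 to 42612813, minus strand, GRCm38) encodes a lysyl oxidase-like enzyme with scavenger receptor domains. It was at 6.68, 13.2 and 9.77 CPM in CCl4 replicates 1, 2 and 3 and at 2.55 and 5.12 CPM in givinostat replicates 1 and 2. Both givinostat libraries lay below the lowest CCl4 library, and CCl4 replicate 1 and givinostat replicate 2 were the nearest across the groups. The group means were 9.88 ± 3.25 CPM (SD, n = 3) and 3.84 ± 1.81 CPM (SD, n = 2). The fitted difference was -1.36 on the log2 scale, with an SE of 0.39 and a 95% interval of -2.24 to -0.47. This had rank 242 of 13590 by edgeR's p (unadjusted p = 0.00751, adjusted p = 0.420), and DESeq2's adjusted p was 0.05002. Loxl4 passed without CCl4 replicate 1 (edgeR adjusted p = 0.0418), where 0.862% of all genes were called lower and 0.885% higher. It did not pass without CCl4 replicate 2 (edgeR adjusted p = 0.925) or without CCl4 replicate 3 (edgeR adjusted p = 0.501). Its log2 fold change was -0.95 without givinostat replicate 1 and -1.95 without givinostat replicate 2.

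The bases before the RefSeq start of Loxl4 are shown because it is the member with the largest difference. They lie at chr19:42612814-42613056 (GRCm38.p6, minus strand, read 5′ to 3′), with matches to the GC box GGGCGG, the binding motif of Sp1-type factors, in capitals.
Loxl4: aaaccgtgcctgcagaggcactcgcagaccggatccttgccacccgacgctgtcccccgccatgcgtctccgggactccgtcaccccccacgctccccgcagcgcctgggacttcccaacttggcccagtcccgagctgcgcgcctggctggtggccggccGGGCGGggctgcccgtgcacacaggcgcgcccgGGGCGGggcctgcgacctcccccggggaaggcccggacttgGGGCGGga
The GC box was searched on both strands and occurs 3 times here, starting 89, 56 and 15 bases before the RefSeq start. The 243 bases shown end short of that start, because bases in an annotated exon of the gene were left out. Of 32851 promoter windows of 250 bases, 32.7% hold the GC box. The hypoxia response core ACGTG was not among these letters on either strand.

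Loxl1 (chromosome 9, 58287738 to 58313186, minus strand) encodes the family member that, in mice, maintains elastic fibres. Loxl1 stood at 5.36, 3.95 and 6.18 CPM under CCl4 alone, compared with 3.44 and 1.57 CPM under givinostat. Both givinostat libraries were below all CCl4 libraries, and givinostat replicate 2 was far below givinostat replicate 1. The log2 fold change was -1.05 ± 0.39 (SE; 95% interval -1.93 to -0.16; edgeR adjusted p = 0.561). It was -1.71 without givinostat replicate 1 and -0.58 without givinostat replicate 2.

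Loxl2 (chromosome 14, 69609068 to 69695834, plus strand) encodes an enzyme of fibrillar and basement membrane collagen crosslinking that has been studied as a drug target in fibrosis. Its values were 7.16, 7.02 and 9.46 CPM with CCl4 and 8.01 and 8.31 CPM with givinostat. The givinostat values lay inside the CCl4 range. The log2 fold change was 0.05 ± 0.22 (SE; edgeR adjusted p = 0.991), with a 95% interval of -0.46 to 0.56. Its sign turned without CCl4 replicate 1 (-0.013) and without CCl4 replicate 2 (-0.025).

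Lox (chromosome 18, 52516067 to 52529867, minus strand), the founding member that crosslinks collagen and elastin, was at 1.42, 1.83 and 3.74 CPM under CCl4 alone, compared with 1.72 and 1.39 CPM under givinostat. CCl4 replicate 3 alone was high, and the groups overlapped. The log2 fold change was -0.58 ± 0.47 (SE; edgeR adjusted p = 0.875) and -0.056 without CCl4 replicate 3. Loxl3 (chromosome 6, 83034173 to 83052562, plus strand), which in mice is needed for palate and spine development, was at 2.56, 4.33 and 3.90 CPM under CCl4 alone, compared with 2.51 and 2.29 CPM under givinostat. The groups were separated only by the gap between 2.56 and 2.51 CPM, and the log2 fold change was -0.58 ± 0.32 (SE; edgeR adjusted p = 0.804). In Loxl3, 13.1% of exonic bases are shared with Htra2 on the other strand, and without a known strand setting their reads cannot be told apart.

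Summed per kilobase, the 5 lysyl oxidases were at 5.68, 7.49 and 8.01 CPM per kilobase with CCl4 and at 4.21 and 4.26 CPM per kilobase with givinostat. The family sum was thus lower in both givinostat libraries than in any CCl4 library, with CCl4 replicate 1 nearest to them. This does not hold for every member, since Lox and Loxl2 overlapped between the groups and Loxl3 was separated only narrowly. Loxl2 made up 23.7, 17.6 and 22.2% of that sum with CCl4 and 35.8 and 36.7% with givinostat. Loxl4 made up 31.5, 47.1 and 32.6% with CCl4, and 16.2 and 32.1% with givinostat, so its share in givinostat replicate 2 was close to that of CCl4 replicates 1 and 3. These shares add up to a whole, so a higher share of 1 member does not show a higher level of it.

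**Figure D2:**
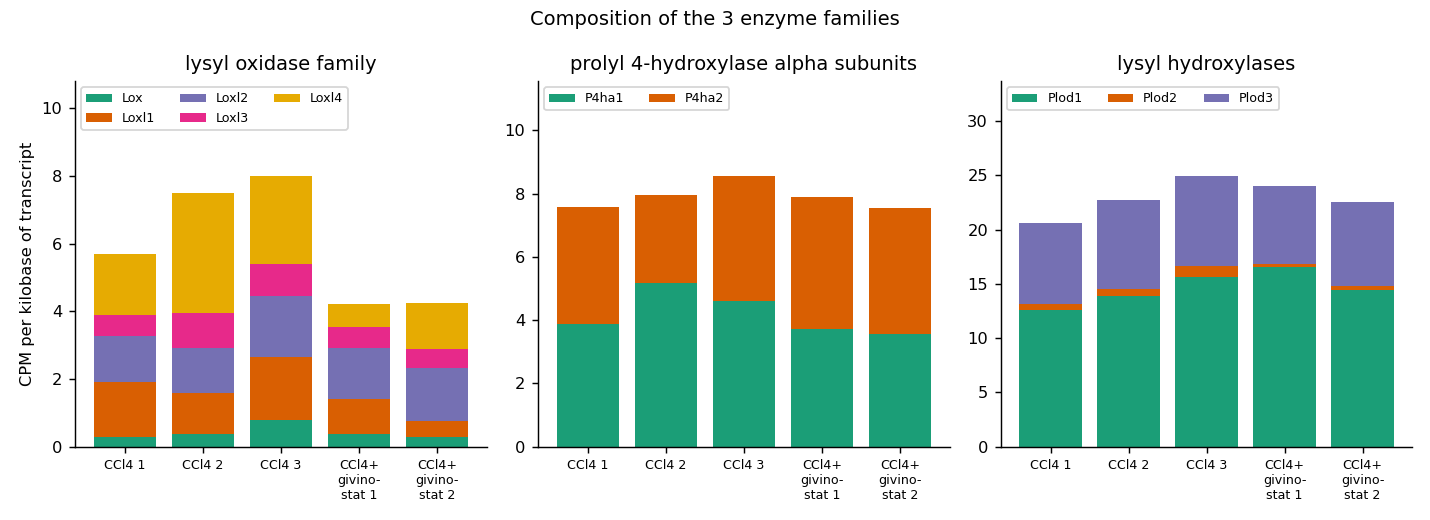
Stacked CPM per kilobase of transcript (y axis, from 0) of the lysyl oxidases, the prolyl 4-hydroxylase alpha subunits and the lysyl hydroxylases in each of the 5 libraries. The lysyl oxidase stacks are shorter with givinostat, at 4.21 and 4.26 against 5.68 to 8.01 with CCl4, while the stacks of the other 2 families overlap between the groups.

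Prolyl 4-hydroxylase is built from alpha subunits, which hold the active site, and from protein disulphide isomerase, the product of P4hb. P4ha1 (chromosome 10, 59323296 to 59373304, plus strand), the alpha subunit used in most tissues, was at 15.7, 21.0 and 18.7 CPM under CCl4 alone, compared with 15.1 and 14.4 CPM under givinostat. The groups did not overlap, but CCl4 replicate 1 was close to the givinostat libraries. Its log2 fold change was -0.32 ± 0.18 (SE; 95% interval -0.75 to 0.10; edgeR adjusted p = 0.810). P4ha2 (chromosome 11, 54100095 to 54131665, plus strand), the alternative alpha subunit, was at 8.39, 6.25 and 8.94 CPM under CCl4 alone, compared with 9.43 and 9.02 CPM under givinostat. Both givinostat values were above all CCl4 values by a narrow margin. The log2 fold change was 0.23 ± 0.22 (SE; 95% interval -0.28 to 0.75; edgeR adjusted p = 0.910) and 0.091 without CCl4 replicate 2.

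The alpha subunits together were at 7.59, 7.95 and 8.56 CPM per kilobase with CCl4 and at 7.90 and 7.54 CPM per kilobase with givinostat, and so the groups overlapped in the sum. P4ha2 made up 48.9, 34.8 and 46.1% of the pool with CCl4 and 52.8 and 52.9% with givinostat. The P4ha2 share was higher in both givinostat libraries than in every CCl4 library, with CCl4 replicate 2 the lowest. This difference in share was not tested.

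The bases before both RefSeq starts are shown because the alpha subunit genes, which are known targets of hypoxia-inducible factors, had fitted values of opposite sign. They lie at chr10:59323046-59323295 and chr11:54100674-54100923 (GRCm38.p6, both plus strand, read 5′ to 3′). The P4ha2 bases lie inside the GENCODE span of the gene, which begins at 54100095, because the RefSeq start used lies further downstream. Capitals mark matches to the hypoxia response core ACGTG on either strand.
P4ha1: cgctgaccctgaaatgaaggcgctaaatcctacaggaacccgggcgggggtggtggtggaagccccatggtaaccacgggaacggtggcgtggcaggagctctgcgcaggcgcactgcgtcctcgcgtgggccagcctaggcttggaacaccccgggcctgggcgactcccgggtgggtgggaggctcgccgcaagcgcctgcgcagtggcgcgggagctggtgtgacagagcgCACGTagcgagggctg
P4ha2: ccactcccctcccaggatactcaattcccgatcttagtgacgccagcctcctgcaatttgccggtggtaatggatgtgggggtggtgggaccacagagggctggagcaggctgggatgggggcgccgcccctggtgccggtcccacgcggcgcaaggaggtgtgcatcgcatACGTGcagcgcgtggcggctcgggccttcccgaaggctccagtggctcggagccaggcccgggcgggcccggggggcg
Each holds 1 match, on the opposite strand and starting 16 bases before the start in P4ha1, and on the same strand and starting 78 bases before the start in P4ha2. The core occurs in 16.6% of the 32851 windows. Plod3 holds it too, 54 bases before its start, which makes 3 of the 5 members with a promoter entry. The fitted values of P4ha1 and P4ha2 had opposite signs, but both intervals span 0, and a match by itself does not show a working site. Of the 10 members, 5 had an entry in the set of RefSeq promoter windows used (GRCm38.p6), namely P4ha1, P4ha2, Loxl4, Plod1 and Plod3. A member without an entry there may still have a RefSeq start.

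The lysyl hydroxylases ranged in level from Plod1 at 14.0, the highest of the 10 members, to Plod2 at 0.718 CPM per kilobase with CCl4. Plod1 (chromosome 4, 147909753 to 147936767, minus strand), which hydroxylates lysines of the triple helix, was at 40.9, 45.2 and 50.7 CPM under CCl4 alone, compared with 53.7 and 46.7 CPM under givinostat. The groups overlapped, and the log2 fold change was 0.14 ± 0.16 (SE; 95% interval -0.23 to 0.51; edgeR adjusted p = 0.933). It was 0.038 without givinostat replicate 1. Plod3 (chromosome 5, 136987019 to 136996648, plus strand), which also adds sugars to hydroxylysine, was at 24.5, 26.8 and 27.3 CPM under CCl4 alone, compared with 23.3 and 25.2 CPM under givinostat. These overlapped as well, and the fitted log2 difference was -0.11 ± 0.15 (SE; 95% interval -0.46 to 0.24; edgeR adjusted p = 0.953). In Plod3, 16.1% of exonic bases are shared with Znhit1 on the other strand.

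Plod2 (chromosome 9, 92542223 to 92608428, plus strand) encodes the hydroxylase of the collagen ends, or telopeptides, whose product forms the pyridinoline crosslinks typical of scars. It was the scarcest of the 3, and its raw counts were 43, 45 and 71 with CCl4 alone and 24 and 34 with givinostat. In CPM these were 2.04, 2.17 and 3.69 against 1.18 and 1.53. Both givinostat libraries were below all CCl4 libraries, and CCl4 replicate 3 was the highest. The log2 fold change was -0.95 ± 0.39 (SE; 95% interval -1.85 to -0.049; edgeR adjusted p = 0.645), and -0.62 without CCl4 replicate 3. Plod2 made up 2.70, 2.61 and 4.04% of the lysyl hydroxylase pool with CCl4 and 1.34 and 1.85% with givinostat. In Plod2, 9.32% of exonic bases are shared with the other strand's Gm38391. The pool as a whole overlapped between groups, at 20.6 to 25.0 CPM per kilobase with CCl4 and 24.0 and 22.5 with givinostat.

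**Figure D3:**
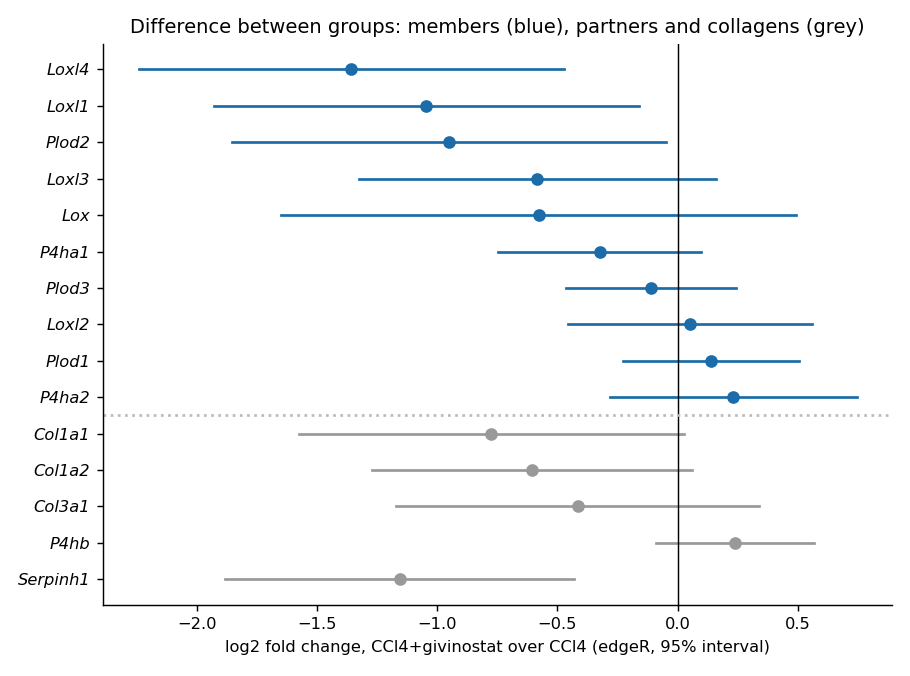
Log2 fold change, CCl4+givinostat over CCl4, with its 95% interval from edgeR (x axis) for the 10 enzymes in blue and for 3 collagen chains, P4hb and Serpinh1 in grey. The intervals of Loxl4, Loxl1 and Plod2 lie below 0 before adjustment for the number of genes, and those of the other 7 enzymes span 0.

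CCl4 replicate 3 was the highest library for 5 of 10 members and the lowest for 0, and givinostat replicate 2 was the lowest for 4. Among member pairs, the most alike over the 5 libraries were Loxl2 and Plod1, with a root mean square difference of 0.121 in centred log2 CPM, and P4ha1 and Plod3, at 0.147. Both pairs join a lysyl hydroxylase with an enzyme of another family, and all 4 genes varied little.

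For Loxl4, the member with the smallest p, the 3 most similar of 9900 genes of at least 5 CPM were Cdh5, Mmp13 and Atp2b2, with root mean square differences of 0.231, 0.248 and 0.254 in centred log2 CPM over 5 libraries. Cdh5 encodes VE-cadherin of endothelial junctions, Mmp13 a collagenase and Atp2b2 a calcium pump. Cdh5 was at 21.9, 39.8 and 32.0 CPM under CCl4 alone, compared with 9.48 and 24.6 CPM under givinostat. Like Loxl4, it was lowest in givinostat replicate 1 and highest in CCl4 replicate 2. Summed sinusoidal endothelial markers had the same extremes, at 203, 322 and 282 CPM with CCl4 and 148 and 316 CPM with givinostat. They differ from Loxl4 in givinostat replicate 2, where the markers reached the upper CCl4 range and Loxl4 did not reach any CCl4 library. The part of endothelial RNA in the Loxl4 result was not tested, nor was that of the mesothelial RNA that was lower in both givinostat libraries.

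**Figure D4:**
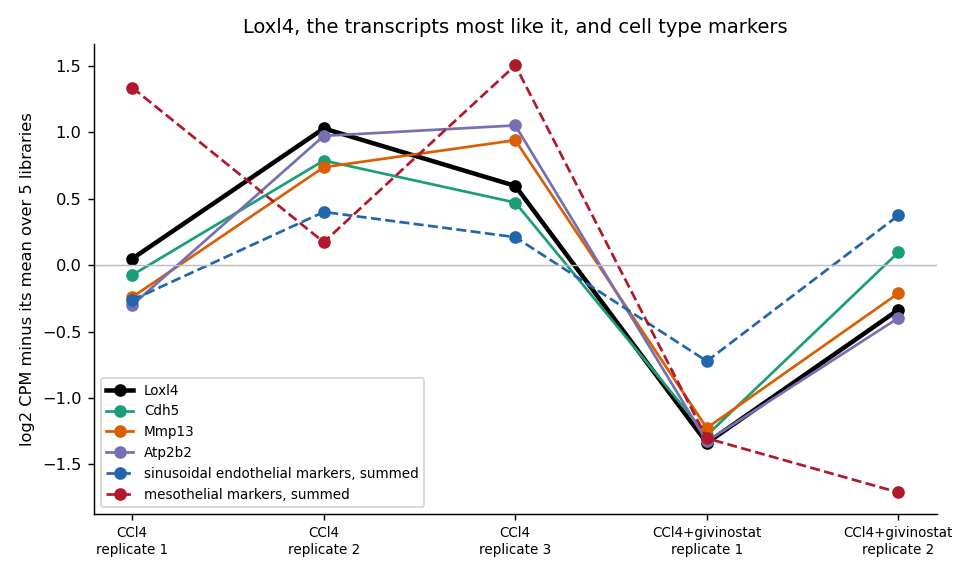
Log2 CPM minus its mean over the 5 libraries (y axis) for Loxl4 (black), the 3 transcripts most like it, and the summed sinusoidal endothelial and mesothelial markers (dashed), by library (x axis). Loxl4, its neighbours and the endothelial markers are lowest in givinostat replicate 1, and the endothelial sum returns to 316 CPM in givinostat replicate 2.

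Because the enzymes act on collagen, each was also set against the summed CPM of Col1a1, Col1a2 and Col3a1, the main fibrillar chains of scar. That sum was 112, 109 and 208 CPM with CCl4 and 116 and 78.3 CPM with givinostat, so CCl4 replicate 3 was high and the groups overlapped. Per 1000 CPM of collagen, Loxl2 stood at 63.8, 64.7 and 45.5 CPM under CCl4 alone, compared with 69.0 and 106 CPM under givinostat. P4ha2 stood at 74.7, 57.7 and 43.0 against 81.3 and 115. Plod1 stood at 364, 416 and 244 against 462 and 597. For these 3 enzymes both givinostat libraries were above every CCl4 library, and the mean log2 ratios differed by 0.58, 0.76 and 0.66. Through the collagen sum alone, a gene of equal CPM in every library would differ by 0.51, and the median over 13550 tested genes with counts in every library was also 0.51. Of 13587 tested genes, 23.7% had both givinostat ratios above every CCl4 ratio. The differences of Loxl2 and Plod1 thus lay near that of a gene of equal CPM. With 1 library left out the differences ran from 0.27 to 0.89 for Loxl2, from 0.51 to 1.01 for P4ha2 and from 0.43 to 0.84 for Plod1. Loxl1 went the other way, at 47.7, 36.4 and 29.8 against 29.6 and 20.1, a difference of -0.61 (log2), where 0.743% of tested genes had both givinostat ratios below every CCl4 ratio. It was -0.33 without givinostat replicate 2 and -0.89 without givinostat replicate 1, and the gap between the groups was that between 29.8 and 29.6. Loxl4, Lox, Loxl3, P4ha1, Plod2 and Plod3 overlapped between groups once set against collagen. Their differences were -0.88, 0.05, -0.04, 0.20, -0.40 and 0.40 (log2), in that order. Loxl4 thus had a lower difference than Loxl1, and it ran from -1.665 to -0.096 with 1 library left out. By exact two-sided permutation over the 10 assignments of the libraries, p was 0.1 for Loxl2 and 0.2 for P4ha2, Plod1 and Loxl1, where 0.1 is the smallest possible, and 0.4 to 0.9 for the other 6. The 10 ratios share 1 denominator and are not independent of each other.

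**Figure D5:**
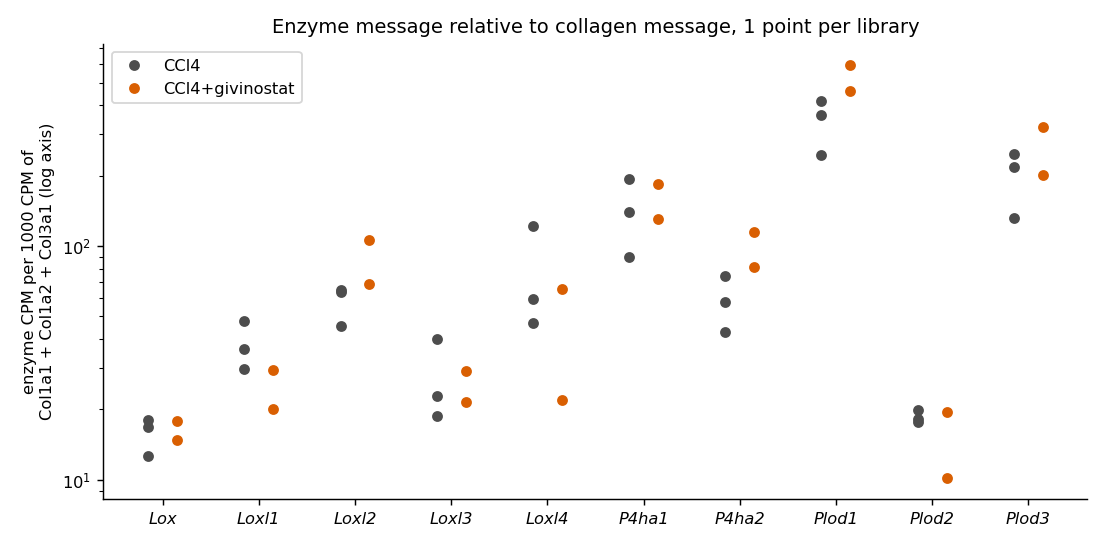
CPM of each enzyme per 1000 summed CPM of Col1a1, Col1a2 and Col3a1 (y axis, log scale), 1 point per library, CCl4 in grey and CCl4+givinostat in orange. Loxl2, P4ha2 and Plod1 have both givinostat points above all CCl4 points, Loxl1 has both below, and the other 6 overlap.

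The collagen substrates had mostly lower fitted values. Of 9 fibrillar chains listed, 7 were tested and Col2a1 and Col11a1 were at 0 counts in every library. In fitted value 6 of the 7 were lower (median log2 fold change -0.42), 0 passed edgeR over all genes and 2 were lower at an unadjusted p under 0.05. Leaving out CCl4 replicate 3 moved this median to -0.26, and leaving out givinostat replicate 1 moved it to -0.67. The chains lower at that p were Col5a2 and Col5a3, chains of type V collagen, which nucleates fibrils, at -0.58 ± 0.23 and -0.37 ± 0.15 (log2, SE). Col11a2, a minor fibrillar chain, was the chain with a higher fitted value at 1.08 ± 0.49 (SE), with raw counts of 10 to 31 under CCl4 alone and of 39 and 44 under givinostat. Among 12 genes of elastic fibre substrates and scaffolds, 11 were tested and 9 were lower in fitted value (median -0.45). By edgeR or DESeq2 0 passed, and 3 were lower at an unadjusted edgeR p under 0.05. Eln, which encodes elastin, on which lysyl oxidases act, was at -0.09 ± 0.23 (log2, SE), and its groups overlapped. Fbn2, a fibrillin, Emilin1, an elastin-associated glycoprotein, and Mfap4, a microfibril protein, had the smallest p-values, at -1.82 ± 0.53, -0.45 ± 0.15 and -0.76 ± 0.32 (log2, SE).

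The other folding and processing proteins of collagen had fitted values on both sides of 0. Of 21 listed, 17 were tested, 8 had a lower and 9 a higher fitted value, and the median was 0.02. It was -0.13 without givinostat replicate 1, and -0.10 both by DESeq2 and by edgeR with no low-count filter. DESeq2 was run on all genes with counts, so both medians include listed genes that failed the filter. Serpinh1, the collagen chaperone HSP47, was at 14.6, 22.7 and 32.5 CPM under CCl4 alone, compared with 9.78 and 11.1 CPM under givinostat. Both givinostat values were below all CCl4 values, with CCl4 replicate 3 the highest. For Serpinh1 the fitted log2 difference was -1.16 ± 0.32 (SE; edgeR adjusted p = 0.394), and DESeq2 called it lower (adjusted p = 0.0430). P3h1, a prolyl 3-hydroxylase, was at 0.29 ± 0.15 and P4hb, the partner of P4ha1 and P4ha2, at 0.24 ± 0.14 (log2, SE). Serpinh1 was the only gene of this list that DESeq2 called, and edgeR called 0, with 1 gene lower at an unadjusted p under 0.05.

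Genes that hypoxia-inducible factors are known to induce, as they do several of the hydroxylases, had fitted values in both directions. Of 16 listed, 14 were tested, 7 were higher and 7 lower, and the median log2 fold change was 0.04. By edgeR 0 passed, and 4 were higher at an unadjusted p under 0.05. Eno1 was listed at 0 in every library, and with the counter and annotation unknown this cannot be read as absence of its message. Bnip3, a mitophagy receptor, was at 152, 143 and 165 CPM under CCl4 alone, compared with 325 and 288 CPM under givinostat. Both givinostat libraries were far above all CCl4 libraries. Its log2 fold change of 1.00 ± 0.14 (SE) did not pass edgeR (adjusted p = 0.140), while DESeq2 called it (adjusted p = 7.09e-06). Pdk1, a brake on pyruvate oxidation, and Egln1, the main oxygen sensor of the pathway, followed at 0.70 ± 0.17 and 0.38 ± 0.16 (log2, SE).

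Genes that supply the enzymes' cofactors had a median of -0.06, with 6 of 10 lower in fitted value and 0 past edgeR or DESeq2, and 1 was higher at an unadjusted edgeR p under 0.05. Slc23a1, an ascorbate transporter, was at -0.56 ± 0.27. Tfrc, the transferrin receptor for iron, was at 0.40 ± 0.15 and Slc39a14, an iron and zinc importer, at -0.28 ± 0.13 (log2, SE). Of 6 further prolyl hydroxylase genes of the 2-oxoglutarate class, 5 were tested and 4 were higher, with a median of 0.07, 0 past either tool and 1 higher at an unadjusted edgeR p under 0.05. Besides Egln1 they included Egln2 at 0.18 ± 0.20 and Egln3 at -0.91 ± 0.48 (log2, SE). Egln3 was at 72.7 CPM in CCl4 replicate 1 and at 27.9 and 21.5 CPM in CCl4 replicates 2 and 3, against 18.5 and 24.7 CPM with givinostat, so its groups overlapped and CCl4 replicate 1 stood far above the other 4 libraries.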

How the data were processed

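Sequencing libraries were made from total liver RNA (Illumina TruSeq, per the labels' protocols). The deposited values are raw read counts per gene symbol, 1 table of 24834 rows per library. Bowtie 0.12.2 and the builds mm8 and mm10 are named in the submitters' processing notes, with no role given. The counter, annotation and strand setting were not found in the labels or headers. The 26 rows named by calendar dates, holding 0.144 to 0.169% of counts, were left out. No 2 libraries of a group agreed within sampling noise. P-values measure the spread between these libraries, described as mice in the series design.

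The test was that of edgeR 4.0.16 in R 4.3.3 (filterByExpr, TMM scaling, quasi-likelihood test, 3 residual degrees of freedom, adjusted p of 0.05) and, as an alternative, DESeq2 1.42.0. A count of 3 corresponded to 0.135 to 0.156 CPM. The SE of a log2 fold change is its size over the square root of F. The 95% intervals use a t distribution with the total degrees of freedom, the residual ones plus those edgeR borrows across genes. Centred log2 CPM used a prior count of 2. The procedure was tested on simulated counts. Gene positions and transcript lengths come from GENCODE M21 on GRCm38, and promoter bases from RefSeq on GRCm38.p6, without the bases after the start or in an annotated exon of the gene.

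The members and lists were chosen with earlier results of these data known, so no set test was run. All 10 members were described, and up to 3 tested genes with the smallest p were named from each list, plus the 3 most similar to the member with the smallest p. Alternatives were RLE scaling, no filter, a filter of 10 counts in every library of a group, DESeq2, the replicate number as a block, an adjusted p of 0.1, all fibrillar collagens as the denominator, and each library left out.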

Additional observations from a re-analysis of the deposited data

How the results depend on the processing

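The number of genes called over all genes depended most on the settings, from 1 higher and 0 lower. It was 2 and 1 at an adjusted p of 0.1, 23 and 15 with no low-count filter, 0 and 0 with the filter of 10 counts (where 10 counts were needed in every library of a group), 66 and 69 with DESeq2, and 0 to 119 higher and 0 to 116 lower with 1 library left out, both highest counts being those without CCl4 replicate 1. With 5 libraries and 3 residual degrees of freedom, precision is limited by the spread between libraries, and for Plod2 and Lox also by counts of 24 to 72 per library. With 1 library left out, list medians ran from 0.02 to 0.12 for hypoxia targets, -0.16 to -0.03 for cofactor supply and 0.07 to 0.15 for the other prolyl hydroxylases. Leaving out each library kept the sign of 9 members. Loxl2 ranged from -0.025 to 0.21 and Loxl4 from -1.95 to -0.95 (log2), and the member median ranged from -0.60 to -0.19. The number of members with a lower fitted value was 7 or 8, and the number lower at an unadjusted p under 0.05 ranged from 1 to 5. Counting these under each alternative was added after seeing the data. RLE scaling moved no member across the threshold or 0. The difference in the enzyme to collagen ratio had no stable sign for Lox (-0.10 to 0.18 with 1 library left out, and -0.0084 with all fibrillar collagens as the denominator), Loxl3 (-0.26 to 0.28), P4ha1 (-0.091 to 0.46) and Plod2 (-0.87 to 0.067). The causes were not tested.

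Same-numbered libraries share only a number, so no pairing was assumed, and deviations of same-numbered libraries correlated at -0.148 and -0.0753 over genes. With the replicate number as a block, CCl4 replicate 3 has no partner and does not inform the treatment term. That fit called 68 genes higher and 77 lower, Loxl4 was at -1.37 (edgeR adjusted p = 0.00479), and the member median was -0.19.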
